A study of Mus musculus with 6 samples.

Results

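The genes described here are 42 genes of sterol and fatty acid metabolism, chosen by symbol and not by a cut on their values in these libraries. They cover the sterol-sensing regulators, the enzymes of cholesterol synthesis, the enzymes that make, lengthen and desaturate fatty acids, genes of fatty acid uptake, storage and oxidation, and genes of cholesterol export and turnover. Of the 42 genes, 41 were listed in at least 1 library, among 17645 genes listed in all. Elovl3, a fatty acid elongase, was listed in no library. Cidec, a lipid droplet protein of fat and liver, was too low to be tested, which left 40 genes.

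Tissue came from the suprachiasmatic nucleus (SCN), the small nucleus of the hypothalamus that times daily rhythms. The mice were C57BL/6 females, killed in the dark at zeitgeber time (ZT, counted in hours from lights on) 12 to 14, and total RNA was used for sequencing. The tissue was punched with a needle from frozen brain sections, and each library was made from the pooled RNA of 2 SCN. The titles name 3 libraries r1r2V (replicates 1, 4 and 5) and 3 libraries V (replicates 2, 3 and 4). The titles do not spell these names out. From what is known of the study, r1r2V stands for mice whose GABAergic neurons, defined by the vesicular GABA transporter, lack the nuclear receptors REV-ERBα and REV-ERBβ, and V for their controls. The sources used here give neither the alleles of the V mice nor the age of the animals. The glia, vessels and other cells of a punch would keep both receptors. The labels do not say whether the pools came from different animals, so a p-value here speaks only of the spread among these samples, which may be technical.

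Cells make cholesterol from acetyl-CoA through mevalonate, squalene and lanosterol. When membrane sterols run low, SCAP carries the SREBP transcription factors out of the endoplasmic reticulum, and SREBPs then switch on the genes of sterol and fatty acid synthesis. The adult brain makes its own cholesterol because the blood-brain barrier keeps out that of the circulation, and astrocytes pass it to neurons on APOE. REV-ERBα and REV-ERBβ are repressors that bind DNA under control of the clock, and in liver, muscle and fat their loss raises the expression of several lipid genes.

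Across the 40 genes tested, no difference between r1r2V and V passed the test. With edgeR's quasi-likelihood test and adjustment over all 14438 genes tested, 0 of the 40 genes were called higher and 0 lower at an adjusted p under 0.05. Over all genes, 60 were called (0.416%), 43 of them higher in r1r2V (0.298%) and 17 lower (0.118%). DESeq2 and limma-voom also called 0 of the genes. At an unadjusted p under 0.05 there were 2 of the 40 genes (5.0%), Lss and Cd36, against 1095 of all genes tested (7.58%). Adjusted p-values of the 40 genes ran from 0.618 to 0.995.

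The estimates were close to zero on both sides. The log2 fold change (r1r2V minus V) was positive for 21 genes and negative for 19, with a median of 0.01, which was also the median over all genes tested. It ran from -0.22 for Fabp7 to 0.40 for Cd36. For 39 of the 40 genes the 95% interval lay within a 1.5-fold difference in either direction, and for all 40 within a 2-fold difference. The exception to the first bound was Cd36. The libraries of the groups did not overlap for 7 of the 40 genes, against 14.5% of all genes tested. In 3 of the 7 (Elovl5, Lpl and Cd36) every r1r2V library was above every V library, which held for 6.87% of all genes. In 4 (Srebf1, Lss, Fasn and Cyp46a1) every r1r2V library was below, which held for 7.63% of all genes.

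**Figure D1:**
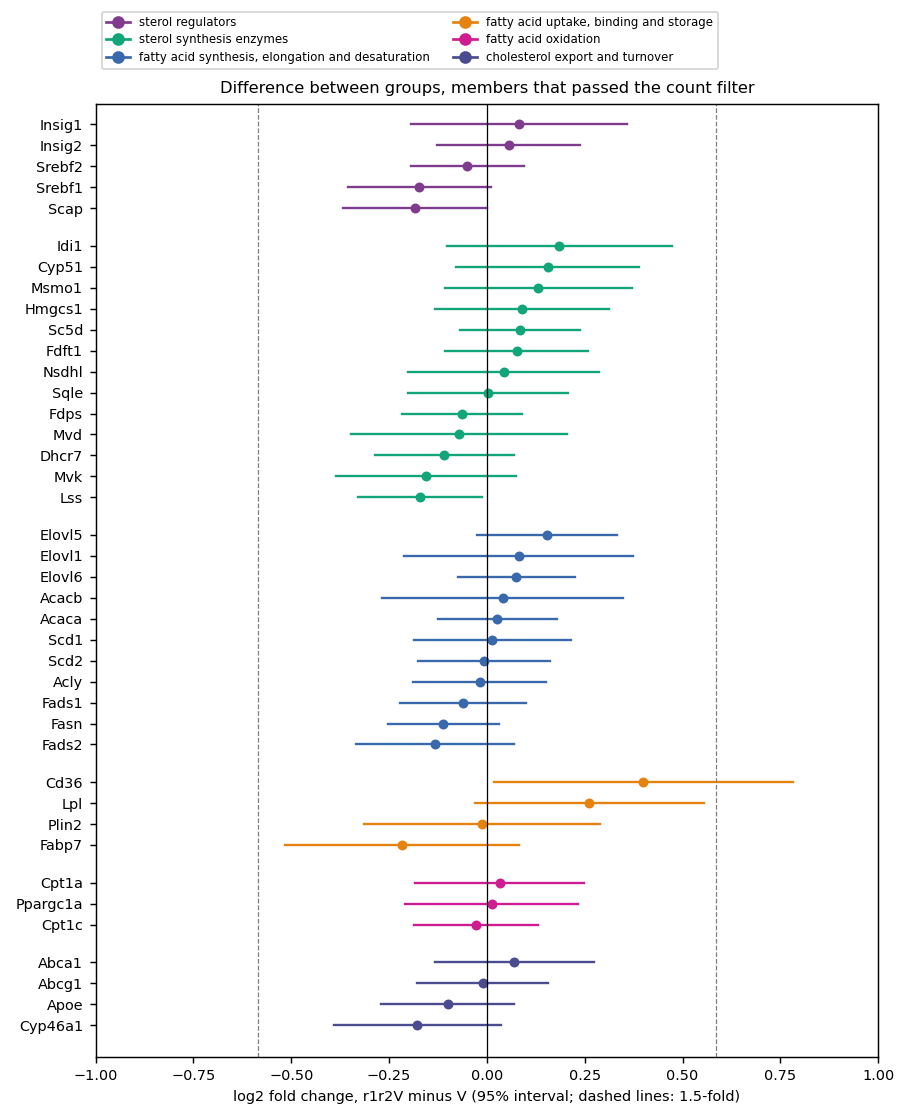
Log2 fold change of each tested gene (horizontal axis, r1r2V minus V, no unit) with its 95% interval, grouped by role. Dashed lines mark a 1.5-fold difference in either direction, and the interval of Cd36 is the only one that reaches past a dashed line.

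Total expected counts, the estimated reads per library, were 17040698 to 17566335 in the r1r2V libraries and 15729603 to 17780928 in the V libraries. Nr1d1, which encodes REV-ERBα, had 196, 157 and 147 CPM in r1r2V replicates 1, 4 and 5, against 56.7, 62.5 and 57.0 CPM in V replicates 2, 3 and 4. CPM are counts relative to the scaled library size, and values of single libraries follow in this order of replicates throughout. Every r1r2V library was above every V library (2.84-fold higher in r1r2V, 95% interval 2.41 to 3.34, edgeR adjusted p = 8.2e-05). Nr1d2, which encodes REV-ERBβ, had 229, 275 and 222 CPM in r1r2V, against 177, 179 and 168 CPM in V, also with no overlap (log2 fold change 0.47, 95% interval 0.28 to 0.66, edgeR adjusted p = 0.0553), and it passed with DESeq2. These are gene totals over all exons and do not show a deletion, and neither receptor's total was lower in the libraries labelled r1r2V. All 8 SCN marker genes were detected in every library. One library differed in several of them: 5 of the 8 were lowest in r1r2V replicate 5. Vip, an SCN neuropeptide, was at 11.4 CPM there. It was at 50.5 and 72.0 CPM in r1r2V replicates 1 and 4 and 51.8 to 85.8 CPM in the V libraries. Avp went the other way, with 384 CPM in r1r2V replicate 5, against 160 and 190 CPM in r1r2V replicates 1 and 4. The V libraries had 247 to 360 CPM of Avp. Summed markers of meningeal fibroblasts were at 206 CPM in r1r2V replicate 5, against 84.7 and 95.5 CPM in the other r1r2V libraries and 87.4 to 121 CPM in the V libraries. Without r1r2V replicate 5, 0 of the 40 genes were called. In tissue, fewer cells of a type and less RNA per cell cannot be told apart.

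Expression levels of the genes spanned more than 3 orders of magnitude. On the FPKM scale (fragment numbers divided by transcript length and library size), Apoe averaged 1701 ± 184 FPKM in r1r2V and 1827 ± 52.0 FPKM in V (SD, n = 3 each), and ranked 8 among the 17645 listed genes in r1r2V and 9 in V. It encodes the main apolipoprotein of the brain. Scd2, the stearoyl-CoA desaturase isoform known to prevail in brain, followed with 389 ± 34.3 FPKM in r1r2V and 393 ± 15.1 FPKM in V (SD, n = 3 each). Hmgcs1, which commits acetyl-CoA to mevalonate synthesis, was the highest of the sterol enzymes at 108 ± 15.8 FPKM in r1r2V and 102 ± 2.08 FPKM in V (SD, n = 3 each). At the low end, Lpl, Cd36 and Acacb averaged 2.00, 1.72 and 0.943 FPKM in r1r2V, against 1.68, 1.31 and 0.917 FPKM in V. Cidec was listed in 2 libraries, with 3 counts in r1r2V replicate 5 and 1 count in V replicate 2. The first 3 places of the order were the same in both groups.

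**Figure D2:**
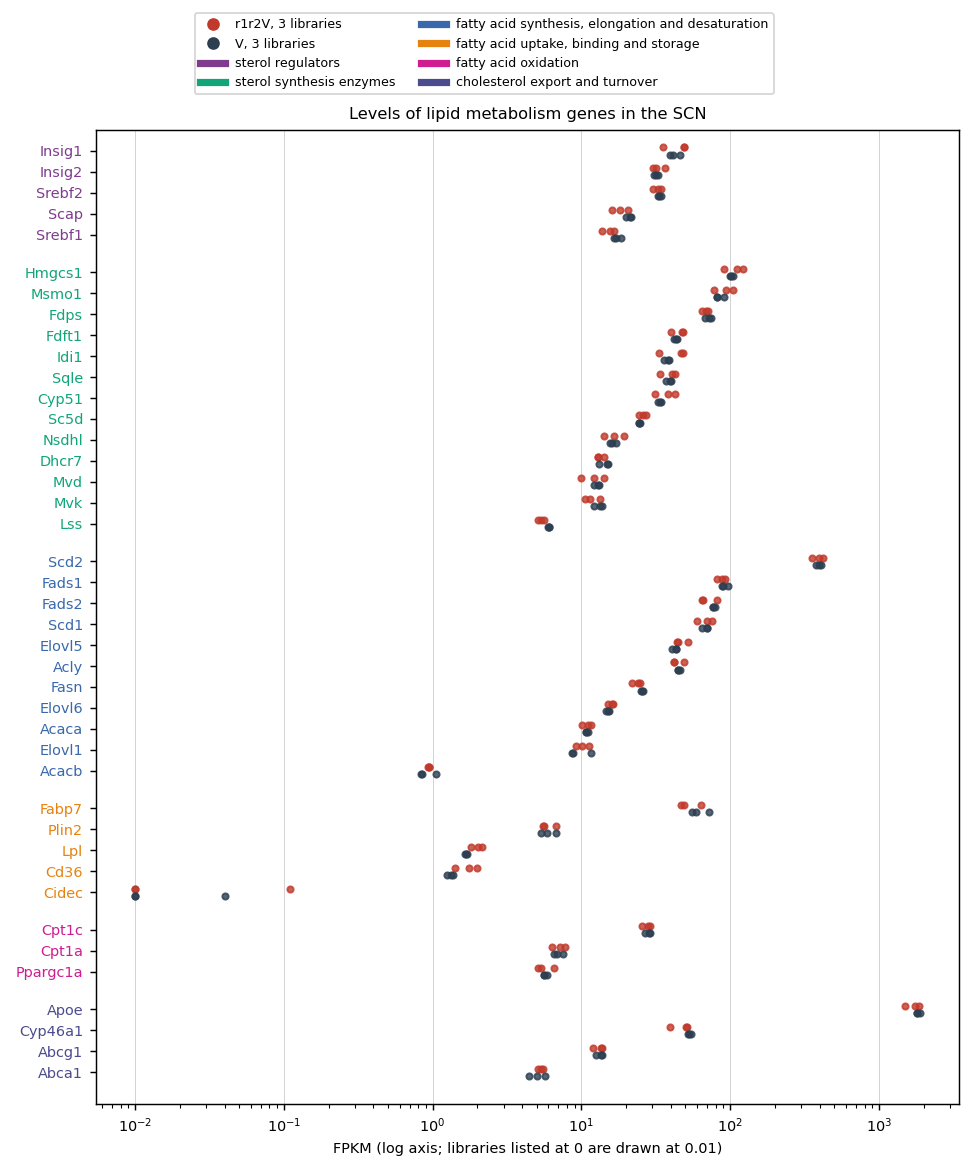
FPKM of each gene (horizontal log axis) in the 3 r1r2V libraries (red, upper row of each gene) and the 3 V libraries (dark, lower row), grouped by role and ordered by level. The groups lie almost on top of each other from Apoe, at 1701 FPKM in r1r2V and 1827 FPKM in V, down to Acacb, and libraries in which Cidec was listed at 0 are drawn at 0.01.

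Isoform pairs had like ratios in both groups. The FPKM of Scd2 was 5.70 ± 0.192 times that of Scd1 in r1r2V and 5.77 ± 0.163 times in V (SD, n = 3 each). Acaca, the cytosolic acetyl-CoA carboxylase, stood at 11.6 ± 0.861 times Acacb, the mitochondrial one, in r1r2V and 11.9 ± 1.33 times in V. Cpt1c, the neuronal carnitine palmitoyltransferase isoform of the endoplasmic reticulum, was at 3.92 ± 0.664 times Cpt1a in r1r2V and 4.04 ± 0.435 times in V. In each of these pairs the means of the groups differed by less than 1 SD. The ratio of Srebf2 to Srebf1 was 2.11 ± 0.0815 in r1r2V and 1.94 ± 0.140 in V. Its lowest r1r2V library, at 2.04, lay below the highest V library, at 2.08, so the groups overlapped.

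The sterol sensors and their transcription factors were all expressed at moderate levels, and 0 of the 5 passed the test. Srebf1, whose SREBP1 products favour genes of fatty acid synthesis, had 69.1, 57.8 and 66.3 CPM in r1r2V, against 69.9, 77.0 and 70.9 CPM in V. All 3 r1r2V libraries were below the V libraries, by a narrow margin in replicate 1 (log2 fold change -0.17, 95% interval -0.35 to 0.01, edgeR adjusted p = 0.660). Scap, the escort of both SREBPs, had 82.7, 66.6 and 75.2 CPM in r1r2V, against 82.0, 86.5 and 86.5 CPM in V. Here r1r2V replicate 1 lay inside the V range and replicate 4 was the lowest library (log2 fold change -0.18, 95% interval -0.37 to 0.00, edgeR adjusted p = 0.655). Srebf2, the regulator of cholesterol synthesis, had 151, 136 and 147 CPM in r1r2V, against 155, 148 and 147 CPM in V. The groups overlapped, and the difference was small (log2 fold change -0.05, 95% interval -0.19 to 0.09, edgeR adjusted p = 0.855).

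Insig1 and Insig2 encode the proteins that hold SCAP in the endoplasmic reticulum when sterols are plentiful, and Insig1 is itself a target of SREBPs. Insig1 had 90.2, 126 and 127 CPM in r1r2V, against 118, 105 and 101 CPM in V. Its lowest and its highest library were both r1r2V libraries, so the V libraries lay inside the r1r2V range (log2 fold change 0.08, 95% interval -0.19 to 0.36, edgeR adjusted p = 0.877). Insig2 had 72.1, 88.3 and 78.8 CPM in r1r2V, against 79.7, 76.6 and 73.9 CPM in V and the same arrangement (log2 fold change 0.06, 95% interval -0.13 to 0.24, edgeR adjusted p = 0.874). Over the 5 regulators the median log2 fold change was -0.05.

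None of the 13 enzymes of sterol synthesis passed the test, and their median log2 fold change was 0.04. The 8 with a positive estimate included Idi1 (isopentenyl diphosphate isomerase), Cyp51 (lanosterol demethylase), Msmo1 (methylsterol monooxygenase) and Hmgcs1. Idi1 had 90.9, 135 and 130.4 CPM in r1r2V, against 108, 105 and 100.1 CPM in V. Replicates 4 and 5 of r1r2V were above every V library and replicate 1 was below them all (log2 fold change 0.18, 95% interval -0.10 to 0.47, edgeR adjusted p = 0.734). Cyp51 had 131, 181 and 165 CPM in r1r2V, against 147, 142 and 139 CPM in V, in the same order (log2 fold change 0.16, 95% interval -0.08 to 0.39, edgeR adjusted p = 0.732). Msmo1 had 132, 181 and 164 CPM in r1r2V, against 156, 139 and 140.0 CPM in V, again with r1r2V replicate 1 below the V libraries and the other r1r2V replicates above (log2 fold change 0.13, 95% interval -0.11 to 0.37, edgeR adjusted p = 0.772). Hmgcs1 had 309.9, 424 and 384 CPM in r1r2V, against 359.5, 341 and 349 CPM in V, with that same order (log2 fold change 0.09, 95% interval -0.13 to 0.31, edgeR adjusted p = 0.827).

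At the other end, Lss and Mvk had the most negative estimates of the pathway. Lss, the synthase that closes squalene epoxide to lanosterol, had 31.4, 35.4 and 33.7 CPM in r1r2V, against 37.9, 37.8 and 37.4 CPM in V. The V libraries were close together and all 3 r1r2V libraries were below them (log2 fold change -0.17, 95% interval -0.33 to -0.01, edgeR adjusted p = 0.618, unadjusted p = 0.0379). Mvk, mevalonate kinase, had 18.2, 17.2 and 21.7 CPM in r1r2V, against 21.6, 22.3 and 19.7 CPM in V. Replicates 1 and 4 of r1r2V were below the V libraries and replicate 5 lay among them (log2 fold change -0.16, 95% interval -0.39 to 0.07, edgeR adjusted p = 0.727). Dhcr7, the reductase of the last step to cholesterol, had 34.9, 35.7 and 39.2 CPM in r1r2V, against 36.4, 41.0 and 41.0 CPM in V, with overlap (log2 fold change -0.11, 95% interval -0.29 to 0.07, edgeR adjusted p = 0.749).

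The remaining enzymes overlapped between groups. Sqle, squalene epoxidase and a rate-limiting step, had 88.7, 108 and 113 CPM in r1r2V, against 105, 105 and 98.6 CPM in V, and the group means were nearly equal (log2 fold change 0.00, 95% interval -0.20 to 0.21, edgeR adjusted p = 0.995). Fdft1, squalene synthase, had 143, 175 and 172 CPM in r1r2V, against 159, 156 and 150.4 CPM in V (log2 fold change 0.08, 95% interval -0.11 to 0.26, edgeR adjusted p = 0.823). For both genes the V libraries lay inside the r1r2V range. Mvd, mevalonate diphosphate decarboxylase, had 16.3, 20.4 and 23.6 CPM in r1r2V, against 21.7, 20.2 and 21.4 CPM in V (log2 fold change -0.07), and its lowest and highest libraries were both r1r2V. Nsdhl, a sterol dehydrogenase, had 29.7, 41.2 and 35.4 CPM in r1r2V, against 33.2, 36.1 and 34.0 CPM in V (log2 fold change 0.04), with the same arrangement. Fdps, farnesyl diphosphate synthase, had 74.8, 81.1 and 82.2 CPM in r1r2V, against 84.9, 85.4 and 78.6 CPM in V (log2 fold change -0.06). Sc5d, a sterol desaturase, had 52.2, 58.6 and 56.6 CPM in r1r2V, against 52.5, 52.1 and 53.4 CPM in V (log2 fold change 0.08), where r1r2V replicates 4 and 5 were above the V libraries and replicate 1 lay among them.

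The sterol enzymes varied more among the r1r2V libraries than among the V libraries. The SD was larger relative to the mean in r1r2V for 12 of the 13 enzymes, Dhcr7 being the exception, with a median of 12.5% of the mean in r1r2V and 3.77% in V. Over all genes tested the SD was larger in r1r2V for 71.7%, with medians of 9.41% in r1r2V and 5.74% in V. In 11 of the 13 enzymes the lowest of the 6 libraries was r1r2V replicate 1, which was the lowest library for 18.6% of all genes tested. In 7 of the 13 the highest library was r1r2V replicate 4, the highest for 25.5% of all genes. Relative to the mean of the V libraries, the mean log2 CPM of the 13 enzymes was -0.18, 0.10 and 0.10 in r1r2V replicates 1, 4 and 5, against 0.02, 0.01 and -0.03 in V replicates 2, 3 and 4. This pattern was noticed in the data and carries no test.

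**Figure D3:**
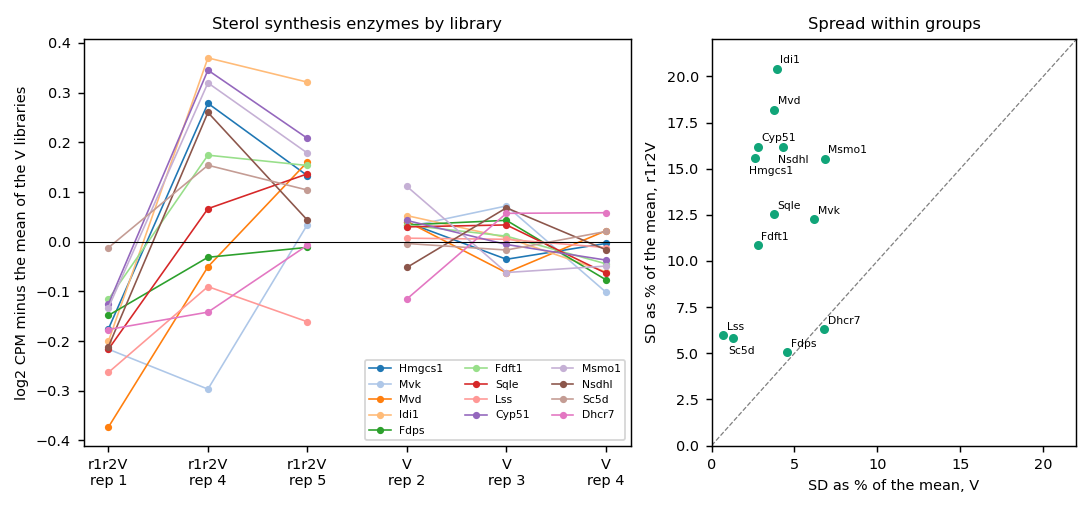
Left, log2 CPM of each sterol synthesis enzyme minus its mean over the V libraries, by library, with lines that only join the points of 1 gene. Right, SD as a percentage of the mean in r1r2V (vertical) against V (horizontal), with equality dashed. In the left panel all 13 enzymes lie below the V mean in r1r2V replicate 1, and in the right panel 12 of 13 lie above the dashed line.

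The estimates of the sterol enzymes moved most when r1r2V replicate 1 was left out. Without r1r2V replicate 1 their median log2 fold change was 0.13, and 5 of the 13 had an unadjusted p under 0.05, against 13.7% of all genes in that fit. None passed the adjustment: the nearest was Idi1, with a log2 fold change of 0.34 and an edgeR adjusted p of 0.0908. Without r1r2V replicate 4 the median was -0.03, and without r1r2V replicate 5 it was 0.03. Over all 40 genes, 12 (30%) had an unadjusted p under 0.05 without r1r2V replicate 1, against 13.7% of all genes. With all libraries, 2 of the 40 (5%) did, against 7.58% of all genes. The library left out was the lowest of the 6 for 21 of the 40 genes, and for 18.6% of all genes.

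Markers of other cell types also varied among these libraries. Those of mural cells were among the lists that, like the sterol enzymes, were lowest on average in r1r2V replicate 1. The 6 mural cell markers summed to 176, 219 and 239.8 CPM in r1r2V, against 202, 205 and 204 CPM in V. Of the 6, 3 (Rgs5, Kcnj8 and Vtn) were lowest in r1r2V replicate 1. Pdgfrb was lowest in V replicate 2, and Acta2 and Tagln in V replicate 4. Acta2 had 8.65, 9.31 and 8.69 CPM in r1r2V and Tagln 8.70, 9.25 and 9.03 CPM, with little spread. The mean log2 CPM of the 6 markers relative to the V libraries was -0.19, 0.10 and 0.14 in r1r2V, close to that of the sterol enzymes. The 8 microglia markers, with means of -0.03, 0.13 and 0.17 in r1r2V, were likewise higher on average in replicates 4 and 5 than in replicate 1, and 2 of the 8 were lowest in replicate 1. The 10 astrocyte markers summed to 4020, 4051 and 4733 CPM in r1r2V replicates 1, 4 and 5, against 4113, 4279 and 4487 CPM in V replicates 2, 3 and 4, and 5 of the 10 were lowest in r1r2V replicate 1. The 10 oligodendrocyte markers summed to 5627, 6051 and 7285 CPM in the r1r2V libraries, against 5913, 5759 and 7990 CPM in the V libraries, and 3 of the 10 were lowest in r1r2V replicate 1. No marker of these 4 lists was at 0 in any library. The mean log2 CPM relative to the V libraries was also lowest in r1r2V replicate 1 for markers of astrocytes, endothelial cells and oligodendrocyte precursors. In r1r2V replicates 1, 4 and 5 it was -0.09, -0.02 and 0.20 for astrocytes and -0.10, -0.01 and 0.15 for endothelial cells. For oligodendrocyte precursors it was -0.074, -0.068 and 0.16. Markers of oligodendrocytes and neurons were lowest in r1r2V replicate 4, at -0.207 and -0.090, against -0.205 and -0.087 in replicate 1. The remaining marker lists were lowest on average in other libraries. The part of cell content in the spread of the sterol enzymes was not tested.

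Promoter sequences are shown for the 4 sterol enzymes with the largest positive estimates, as the 250 bases upstream of the RefSeq start (GRCm38.p6), 5′ to 3′ on the gene's strand. Capitals mark CCAAT, the box bound by NF-Y, which acts with SREBPs, on either strand (ATTGG when on the other strand), and in Hmgcs1 also TCACNCCAC, the sterol regulatory element.
Hmgcs1, chr13:119690101-119690350, plus strand: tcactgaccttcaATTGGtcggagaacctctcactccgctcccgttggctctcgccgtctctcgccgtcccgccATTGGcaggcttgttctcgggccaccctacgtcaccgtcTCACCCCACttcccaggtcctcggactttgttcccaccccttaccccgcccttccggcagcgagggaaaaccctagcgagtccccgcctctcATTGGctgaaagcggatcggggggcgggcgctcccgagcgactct
Idi1, chr13:8885356-8885605, plus strand: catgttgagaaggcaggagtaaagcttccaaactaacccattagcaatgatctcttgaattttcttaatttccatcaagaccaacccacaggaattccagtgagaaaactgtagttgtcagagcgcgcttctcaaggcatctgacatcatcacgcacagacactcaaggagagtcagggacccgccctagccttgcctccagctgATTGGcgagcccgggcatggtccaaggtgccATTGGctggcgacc
Cyp51, chr5:4104698-4104947, minus strand: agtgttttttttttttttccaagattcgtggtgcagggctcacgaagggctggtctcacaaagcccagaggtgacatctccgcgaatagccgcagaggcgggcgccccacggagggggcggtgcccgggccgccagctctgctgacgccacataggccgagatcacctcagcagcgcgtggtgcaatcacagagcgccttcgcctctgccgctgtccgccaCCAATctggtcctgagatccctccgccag
Msmo1, chr8:64733579-64733828, minus strand: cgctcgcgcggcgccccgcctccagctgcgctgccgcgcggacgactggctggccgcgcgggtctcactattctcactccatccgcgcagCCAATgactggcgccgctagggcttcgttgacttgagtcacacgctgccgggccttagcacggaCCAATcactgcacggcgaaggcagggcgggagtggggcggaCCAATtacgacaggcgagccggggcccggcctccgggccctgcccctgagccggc
Hmgcs1 and Msmo1 each hold 3 CCAAT boxes, Idi1 holds 2 and Cyp51 holds 1. Of the sterol enzymes, 10 had a promoter in the table, and all 10 hold a CCAAT in at least 1 of their 12 promoter entries. In all, 10 of the 12 entries hold one, against 33.85% of the 32851 promoters of the same length. Over the 33 genes with an entry, 25 of 44 entries hold one (56.82%). By list, these were 5 of 10 entries of sterol regulators and 4 of 9 of fatty acid synthesis, elongation and desaturation. They were 3 of 5 for uptake, binding and storage, 2 of 3 for oxidation and 1 of 5 for cholesterol export and turnover. TCACNCCAC was found in the Hmgcs1 promoter, 137 to 129 bases upstream of the start, and in no other promoter of the 33 genes with an entry, against 1.053% of all promoters. Sqle, Fdps and Fdft1 were among the 9 genes without an entry, and other forms of the element were not searched. CACGTG, the E-box bound by CLOCK and BMAL1, was in 6 of the genes' 44 promoter entries, against 6.021% of all. These are matches of letters, searched on both strands, and not sites of measured binding.

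Genes of fatty acid synthesis, elongation and desaturation also showed no called difference, with a median log2 fold change of 0.01 over the 11 tested. Fasn, the fatty acid synthase, had 242, 216 and 239 CPM in r1r2V, against 247, 249.9 and 256 CPM in V. All 3 r1r2V libraries were below the V libraries (log2 fold change -0.11, 95% interval -0.25 to 0.03, edgeR adjusted p = 0.695). Elovl5, an elongase of polyunsaturated fatty acids, had 119, 142 and 120.0 CPM in r1r2V, against 111, 116 and 117 CPM in V. Here every r1r2V library was above every V library, most of all replicate 4 (log2 fold change 0.15, 95% interval -0.03 to 0.33, edgeR adjusted p = 0.679). Fads2, the desaturase that opens the same pathway, had 91.5, 92.6 and 115 CPM in r1r2V, against 111, 108 and 109 CPM in V, with r1r2V replicates 1 and 4 below the V libraries and replicate 5 above them (log2 fold change -0.13, 95% interval -0.34 to 0.07, edgeR adjusted p = 0.732).

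Acly, which makes the acetyl-CoA for both pathways from citrate, had 180.2, 215 and 182 CPM in r1r2V, against 194, 198 and 192 CPM in V. The V libraries lay inside the r1r2V range (log2 fold change -0.02, 95% interval -0.19 to 0.15, edgeR adjusted p = 0.961). Scd2 had 1869, 2122 and 2279 CPM in r1r2V, against 2033, 2086 and 2185 CPM in V and also overlapped (log2 fold change -0.01, 95% interval -0.18 to 0.16, edgeR adjusted p = 0.982). Both desaturases of this family, Scd1 and Scd2, were lowest in r1r2V replicate 1 and highest in r1r2V replicate 5. Acaca had 104, 101 and 91.7 CPM in r1r2V, against 99.1, 95.7 and 95.8 CPM in V (log2 fold change 0.03). Acacb, the lowest of the tested genes on the FPKM scale, had 7.89, 7.93 and 8.04 CPM in r1r2V, against 8.97, 7.04 and 7.17 CPM in V (log2 fold change 0.04). The r1r2V libraries of Acacb were closer together than its V libraries, which was so for 4 of the 40 genes.

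Elovl6, which lengthens palmitate to stearate, had 86.8, 94.7 and 96.9 CPM in r1r2V, against 88.6, 85.7 and 89.9 CPM in V (log2 fold change 0.07), with r1r2V replicates 4 and 5 above the V libraries. Elovl1, an elongase of saturated very long chains, had 15.7, 17.7 and 19.4 CPM in r1r2V, against 15.0, 15.1 and 20.0 CPM in V (log2 fold change 0.08), and V replicate 4 was its highest library. Fads1, the desaturase that acts after Fads2 and Elovl5, had 271, 302 and 315 CPM in r1r2V, against 303, 295 and 328 CPM in V (log2 fold change -0.06), with V replicate 4 highest as well. All 3 overlapped between groups.

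Of the 42 genes, 7 were included because REV-ERB represses them in liver or other tissues: Fabp7, Lpl, Elovl3, Scd1, Plin2, Cd36 and Ppargc1a. Of the 6 tested, 0 were called (0.416% of all genes were), 1 had an unadjusted p under 0.05 (7.58% of all genes), and the median log2 fold change was 0.01. The groups did not overlap for 2 of the 6, Cd36 and Lpl, against 14.5% of all genes. Cd36, a scavenger receptor that takes up fatty acids and that endothelium and microglia express in brain, had 4.70, 5.92 and 6.70 CPM in r1r2V, against 4.46, 4.11 and 4.57 CPM in V. Every r1r2V library was above every V library, with replicate 1 only just so (log2 fold change 0.40, 95% interval 0.02 to 0.78, edgeR adjusted p = 0.638, unadjusted p = 0.0419). Lpl, lipoprotein lipase, had 7.14, 8.62 and 8.04 CPM in r1r2V, against 6.60, 6.54 and 6.73 CPM in V. Its V libraries were close together and all r1r2V libraries were above them (log2 fold change 0.26, 95% interval -0.03 to 0.55, edgeR adjusted p = 0.670). Both genes were expressed at under 10 CPM.

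Fabp7, the brain fatty acid binding protein of astrocytes and radial glia and a REV-ERBα target known from mouse brain, had 30.6, 42.5 and 32.4 CPM in r1r2V, against 47.5, 38.5 and 36.6 CPM in V. Replicates 1 and 5 of r1r2V were below every V library, and replicate 4 lay among them (log2 fold change -0.22, 95% interval -0.52 to 0.08, edgeR adjusted p = 0.711). Scd1, a desaturase, had 280.0, 336 and 362 CPM in r1r2V, against 306, 331 and 332 CPM in V, with the V libraries inside the r1r2V range (log2 fold change 0.01, 95% interval -0.19 to 0.21, edgeR adjusted p = 0.975). Plin2, which coats lipid droplets, had 9.69, 12.2 and 10.03 CPM in r1r2V, against 9.65, 10.5 and 12.1 CPM in V (log2 fold change -0.01, 95% interval -0.32 to 0.29, edgeR adjusted p = 0.982). Ppargc1a, a coactivator of mitochondrial and oxidative genes, had 32.0, 34.6 and 42.2 CPM in r1r2V, against 35.6, 37.0 and 35.4 CPM in V (log2 fold change 0.01, 95% interval -0.21 to 0.23, edgeR adjusted p = 0.979). In these last 3 genes the groups overlapped and the means were nearly equal. Positive estimates were found for 4 of the 6 genes, and the V libraries varied less than the r1r2V libraries in all 6.

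**Figure D4:**
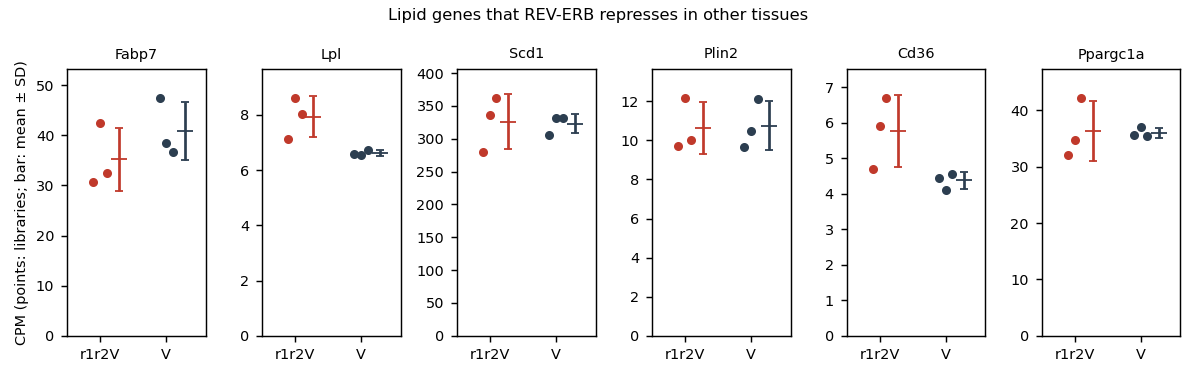
CPM (vertical axes from 0, one scale per gene) of the 6 tested lipid genes that REV-ERB represses in other tissues, in r1r2V (left of each panel) and V (right). Points are libraries and bars are the mean ± SD (n = 3 each). The groups are apart for Lpl and Cd36 and overlap for Fabp7, Scd1, Plin2 and Ppargc1a.

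Fabp7 and Plin2 each have a match to TAGGTCA, a core of the DNA element bound by REV-ERB, upstream of the start. Their sequences are shown because they are the genes of the 7 with such a match. The bases beside this core were not part of the search. Capitals mark TAGGTCA, here on the opposite strand and so read as TGACCTA there. The CCAAT boxes are not marked.
Fabp7, chr10:57784673-57784922, plus strand: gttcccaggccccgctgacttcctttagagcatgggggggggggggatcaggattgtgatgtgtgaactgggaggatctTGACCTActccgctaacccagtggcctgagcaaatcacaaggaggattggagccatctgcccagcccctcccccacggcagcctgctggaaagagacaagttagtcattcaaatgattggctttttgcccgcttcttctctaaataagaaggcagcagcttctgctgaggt
Plin2, chr4:86670060-86670309, minus strand: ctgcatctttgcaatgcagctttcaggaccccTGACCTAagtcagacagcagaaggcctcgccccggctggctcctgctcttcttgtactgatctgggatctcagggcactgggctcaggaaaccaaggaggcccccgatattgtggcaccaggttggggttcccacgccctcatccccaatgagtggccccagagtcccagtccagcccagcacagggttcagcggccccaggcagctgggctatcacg
The match lies 171 to 165 bases upstream of the start in Fabp7 and 218 to 212 bases upstream in Plin2. The Plin2 start used here lies inside the annotated gene (chr4:86626910-86670217). Part of the Plin2 sequence therefore overlaps the gene, and the match lies beyond the gene's end. TAGGTCA or TGGGTCA was found in 5 of the genes' 44 promoter entries, against 5.382% of all promoters. The other 3 matches were in Insig2, Mvk and Dhcr7, whose log2 fold changes were 0.06, -0.16 and -0.11. Lpl, Scd1 and Elovl3 had no entry in the promoter table.

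Fatty acid oxidation was represented by 3 genes, including Ppargc1a above, and 0 were called. Cpt1a, the widespread isoform of the enzyme that admits long fatty acids to mitochondria, had 26.5, 30.6 and 33.2 CPM in r1r2V, against 28.9, 27.7 and 31.8 CPM in V, and the groups overlapped (log2 fold change 0.03, 95% interval -0.18 to 0.25, edgeR adjusted p = 0.943). Cpt1c had 77.9, 76.2 and 69.4 CPM in r1r2V, against 79.1, 76.5 and 72.1 CPM in V, also with overlap (log2 fold change -0.03, 95% interval -0.19 to 0.13, edgeR adjusted p = 0.936).

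Of the 4 genes of cholesterol export and turnover, 0 were called and the median log2 fold change was -0.06. Cyp46a1, the neuronal enzyme that hydroxylates cholesterol so that it can leave the brain, had 104, 80.9 and 103 CPM in r1r2V, against 109, 106 and 111 CPM in V. All 3 r1r2V libraries were below the V libraries, with replicate 4 farthest from them (log2 fold change -0.18, 95% interval -0.39 to 0.03, edgeR adjusted p = 0.683). Apoe had 2064, 1797 and 2213 CPM in r1r2V, against 2135, 2133 and 2244 CPM in V, with r1r2V replicate 4 again the lowest (log2 fold change -0.10, 95% interval -0.27 to 0.07, edgeR adjusted p = 0.757). Abca1 and Abcg1 are the transporters that load cholesterol onto lipoproteins, and both overlapped between groups. Abca1 had 51.4, 54.7 and 56.4 CPM in r1r2V, against 45.6, 57.9 and 51.3 CPM in V (log2 fold change 0.07). Abcg1 had 76.4, 69.0 and 79.9 CPM in r1r2V, against 71.5, 78.3 and 77.1 CPM in V (log2 fold change -0.01). In 3 of the 4 genes, Abca1 being the exception, r1r2V replicate 4 was the lowest library, which was so for 24.8% of all genes tested.

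The same held for 85 other tested genes of these pathways, of 88 listed: 0 were called in either direction and the median log2 fold change was -0.01. At an unadjusted p under 0.05 there were 5 (5.88%, against 7.58% of all genes tested), namely Elovl2, Hacd2, Plin4, Acsl3 and Dgat1. Elovl2, the elongase of very long polyunsaturated fatty acids, had 12.4, 12.6 and 13.3 CPM in r1r2V, against 15.3, 15.2 and 15.9 CPM in V. All r1r2V libraries were below the V libraries and close together (log2 fold change -0.28, 95% interval -0.48 to -0.07, edgeR adjusted p = 0.512). Hacd2, a dehydratase of the elongation cycle, had 51.1, 51.9 and 55.3 CPM in r1r2V, against 43.0, 46.0 and 49.5 CPM in V, with every r1r2V library above the V libraries (log2 fold change 0.19, 95% interval 0.03 to 0.36, edgeR adjusted p = 0.591). Plin4, a lipid droplet coat protein, had 15.7, 6.66 and 8.69 CPM in r1r2V, against 4.06, 7.72 and 6.73 CPM in V. Its difference came with overlap and 1 high library, r1r2V replicate 1 (log2 fold change 0.75, 95% interval 0.04 to 1.46, edgeR adjusted p = 0.629). Without that library the log2 fold change was 0.32.

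Acsl3, an acyl-CoA synthetase of lipid droplets, had 257, 293 and 305 CPM in r1r2V, against 255, 259.8 and 245 CPM in V, with r1r2V replicate 1 among the V libraries (log2 fold change 0.17, 95% interval 0.01 to 0.33, edgeR adjusted p = 0.641). Dgat1, which makes triglycerides, had 20.7, 17.8 and 20.8 CPM in r1r2V, against 23.6, 22.1 and 22.3 CPM in V, without overlap (log2 fold change -0.20, 95% interval -0.40 to -0.01, edgeR adjusted p = 0.645). In the lists of other sterol genes, Mbtps1 (the protease that first cuts SREBPs) and Stard4 (a cholesterol carrier) were among those with the smallest unadjusted p, with log2 fold changes of -0.13 and 0.15. Those of other lists were Tecr, with -0.12, Slc25a20, Cpt1b and Etfdh, with 0.16, -0.28 and -0.07, and Lrp8, Cyp27a1 and Cyp7b1, with 0.18, 0.26 and 0.20. The edgeR adjusted p of these genes ran from 0.666 to 0.827. The other sterol genes were lowest in r1r2V replicate 1 in 5 of 13, against 11 of 13 of the enzymes above.

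Some values may share reads with neighbours or relatives. Fdft1 (chr14:63145150-63181687, GRCm38) shares 774 exon bases (20.9% of its own) with Ctsb on the opposite strand, and smaller overlaps join Cyp51 with Akap9, Srebf1 with Rai1 and Elovl1 with Cdc20. The sources used here do not say whether counting used strand, and reads of these overlaps cannot be told apart. Transcripts were compared only with protein-coding transcripts of other listed genes. Among these, none of the 41 listed genes has a near-identical one (95% identity over 50% of the shorter), the closest pair being Scd1 and Scd3 at 89.7%. Pseudogenes, other non-coding transcripts and genes not listed were not searched. Expected counts were not all whole for 4 of the genes, Fdft1, Lpl, Scd1 and Scd2. Of the listed genes, 6 lie on chromosome 5 and 5 on chromosome 19, which holds Fads1, Fads2, Scd1 and Scd2.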

How the data were processed

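RNA-seq tables of 6 SCN libraries, 3 titled r1r2V and 3 titled V, were used. Per the file headers, the authors deposited for each gene an expected count (an estimated read number that need not be whole) and an FPKM. Between 9.65% and 10.2% of the expected counts were not whole. Per the submitters' processing notes, RSEM 1.2.12 and Bowtie2 2.2.5 were among the tools, beside HISAT2 2.0.4, StringTie 1.0.4 and Cufflinks 2.2.1, on build mm10. The sources used here do not give their roles. Expected counts were rounded, genes were kept by filterByExpr (minimum count 10), libraries were scaled by TMM, and groups were compared with edgeR 4.0.16 (quasi-likelihood, R 4.3.3) with Benjamini-Hochberg adjustment over 14438 genes. A gene not listed in a library was taken as 0 there. CPM uses the scaled library sizes, and FPKM as deposited was used to compare levels between genes. The 95% intervals come from the same fit and cover the spread between libraries. The fit was tested on simulated data. Alternatives were DESeq2 1.42.0, limma-voom (limma 3.58.1), other scalings and filters, log2 FPKM, and leaving out each library. Promoters are those of RefSeq on GRCm38.p6, the assembly of mm10, and exon overlaps those of GENCODE. Transcripts were compared with BLAST+ 2.17.0.

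All 42 genes are named. Those with the smallest p of each role list, up to 3, and the 7 genes repressed by REV-ERB elsewhere are given in full, with up to 3 of each list of other lipid genes. Other values in full were added after they were seen. Of the other lipid genes, 1 that this rule takes is not reported here. The genes, lists and tests were chosen with earlier results of these data known.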

Additional observations from a re-analysis of the deposited data

How the results depend on the processing

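In every fit run (DESeq2, limma-voom, RLE and upper-quartile scaling, both other filters, log2 FPKM with a pseudocount of 1 or 0.1, and each library left out), 0 of the 40 genes were called. Over all genes, DESeq2 called 68 higher and 37 lower, against 43 and 17 with edgeR. With single libraries left out, edgeR called 19 to 52 higher and 7 to 24 lower, and the low counts came without a V library (20, 20 and 19 higher and 7, 8 and 7 lower without V replicates 2, 3 and 4). The sign of the log2 fold change held in all fits for 23 of the 40 genes. It turned without 1 library for the other 17, whose values with single libraries left out ran from -0.00030 to 0.23 for Insig1, -0.024 to 0.12 for Insig2, -0.014 to 0.21 for Hmgcs1, -0.21 to 0.058 for Mvd, -0.073 to 0.10 for Sqle, -0.080 to 0.15 for Nsdhl, -0.11 to 0.026 for Acly, -0.010 to 0.072 for Acaca, and from -0.024 to 0.16 for Acacb, -0.072 to 0.11 for Scd1, -0.078 to 0.067 for Scd2, -0.12 to 0.075 for Plin2, -0.047 to 0.12 for Cpt1a, -0.066 to 0.018 for Cpt1c, -0.11 to 0.094 for Ppargc1a, -0.013 to 0.16 for Abca1 and -0.061 to 0.047 for Abcg1. For 3 of these it turned under other settings too. Sqle was at -0.0050 with limma-voom, -0.0029 with upper-quartile scaling, and -0.0098 and -0.010 on log2 FPKM with pseudocounts of 1 and 0.1. On log2 FPKM with these pseudocounts, Scd1 was at -0.00019 and -0.00027 and Ppargc1a at -0.0025 and -0.0040. The causes were not tested. Nr1d2 passed with DESeq2, with no filter and without r1r2V replicate 4 or 5.

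No paired analysis was possible because number 4 is the single replicate number found in both groups. With 3 libraries per group, the printed intervals bound the differences, and an adjusted p above the threshold does not show equal expression. Of the 40 genes, Cd36 had the widest interval.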
